A study of Mus musculus with 8 samples.

Results

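The genes described here are 9 members of the BCL-2 family, which decides whether a cell survives or dies by apoptosis. They are given by name, and rows of the count table were matched to them by Ensembl ID. All 9 of the 9 were present among 15917 genes: the pro-survival genes Bcl2, Bcl2l1 and Mcl1, the pore formers Bak1 and Bax, and the BH3-only genes Bid, Bad, Bbc3 and Bcl2l11. The RNA came from mouse eosinophils (strain C57BL/6), granulocytes of type 2 immunity. The cells were taken from the blood of IL-5 transgenic mice, although the genotype label reads WT, and were kept in culture medium with serum for 18 h. In experiment 1 the cells received IFN-γ and TNF-α at 15 ng/mL (group E1) or no cytokine (group CN). In experiment 2 they received IL-5, GM-CSF and IL-4 at 10 ng/mL with IL-33 at 30 ng/mL (group E2), or IL-5 alone at 10 ng/mL (group E0). Each group held 2 libraries, replicate 1 and replicate 2. All groups share the transgenic donors and the removal of CD90 and B220 positive lymphocytes with beads, so CN is a culture without cytokine of cells from mice with excess IL-5. Separate animals or cultures are not stated for the replicates, so p-values measure only the spread between these libraries.

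In the mitochondrial pathway of apoptosis, BAK and BAX assemble pores in the outer mitochondrial membrane and release cytochrome c, which starts the caspase cascade. BCL-2, BCL-XL (encoded by Bcl2l1) and MCL-1 hold the pore formers in check. The BH3-only proteins BIM (Bcl2l11), PUMA (Bbc3), BID and BAD sense stress or loss of growth factors, and they bind and block the pro-survival proteins or engage the pore formers. Eosinophils are short-lived cells, and IL-5, GM-CSF and IL-33 are known to prolong their life.

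Library totals ran from 60809057 to 95065752 counts. Levels are given as CPM, read counts scaled to a common library size after TMM, a method that corrects for differences in RNA composition. No member fell below 283 counts in any library. In all 4 groups the replicate 1 library held Y-linked transcripts and the replicate 2 library held Xist, which is transcribed in female cells. Xist was at 0.0527 to 0.193 CPM in the replicate 1 libraries and at 796 to 1142 CPM in the replicate 2 libraries, so the spread within a group includes a difference of sex. Of the listed eosinophil markers 9 of 9 were in the table and all were detected in every library, with Siglecf between 701 and 1004 CPM and Ccr3 between 1191 and 2590 CPM. In E2 versus E0, 7 of the 9 were lower and 1, Siglecf, was higher (median log2 fold change -1.10). The granule protein gene Epx had 15.2 and 7.87 CPM in E2, against 53.1 and 23.5 CPM in E0. In E1 versus CN, 1 of the 9, Siglecf, was lower and 0 were higher. The sum of the 9 was 3637 to 4025 CPM in E1 against 4159 to 4172 CPM in CN, and 2513 to 2551 CPM in E2 against 3803 to 4189 CPM in E0. Markers of other leukocytes moved between groups as well. The 10 of 10 listed neutrophil markers summed to 1326 to 1788 CPM in E1 against 2655 to 3042 CPM in CN, and to 924 to 1319 CPM in E2 against 2767 to 3468 CPM in E0. In E1 versus CN, 1 of them was higher and 5 were lower, and Ly6g had 64.31 and 62.15 CPM in E1, against 6.60 and 7.05 CPM in CN. In E2 versus E0, 0 were higher and 5 were lower, and Retnlg had 27.5 and 23.3 CPM in E2, against 1259 and 1068 CPM in E0. Of 11 monocyte and macrophage markers, 10 were in the table. They summed to 6422 to 6888 CPM in E1 against 2623 to 2897 CPM in CN, and to 3566 to 3731 CPM in E2 against 2502 to 2517 CPM in E0. In E2 versus E0, 7 of the 10 were lower (median log2 fold change -1.95) and 3 were higher, Csf1r, Adgre1 and Cd14, which carry the sum. In E1 versus CN, 4 were higher and 2 lower. Ly6c2 alone had 4214 and 3784 CPM in E1, against 92.8 and 105 CPM in CN, and the macrophage marker Mertk had 2.46 and 4.65 CPM in E1, against 0.379 and 0.132 CPM in CN. Without Ly6c2 the other 9 summed to 2675 and 2638 CPM in E1, against 2805 and 2518 CPM in CN. Adgre1 made up most of this sum, with 1927 and 1796 CPM in E1, against 2336 and 2108 CPM in CN. Csf1r had 722 and 816 CPM in E1, against 457 and 401 CPM in CN. Sums over all libraries ran from 21.6 to 39.2 CPM for 5 of 5 B cell markers, 6.13 to 39.6 CPM for 4 of 4 NK cell markers, 11.9 to 28.5 CPM for 6 of 6 basophil and mast cell markers and 2.71 to 4.91 CPM for 3 of 7 T cell markers. The T cell markers Cd3e and Cd3g were not analysed here. The part of these cells in the members' results was not tested. In bulk RNA, fewer cells of a type and less RNA per cell cannot be told apart.

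Mcl1 was by far the most abundant member once counts were set per kilobase of exon, the scale on which genes can be compared. Its level was 444 ± 27.3 CPM per kb in E1, 362 ± 1.58 in CN, 362 ± 39.4 in E2 and 390 ± 36.8 in E0 (SD, n = 2 each). Bcl2 was the least abundant in E1, at 0.458 ± 0.0517 CPM per kb, in CN, at 2.13 ± 0.595, and in E0, at 1.67 ± 0.166. In E2 it stood at 5.56 ± 0.217 CPM per kb, above Bbc3 and Bcl2l11. Of the summed level per kb of Bcl2, Bcl2l1 and Mcl1, Mcl1 made up 98.5% in both E1 libraries, 95.7% and 96.3% in CN, 85.1% and 87.1% in E2, and 97.2% and 97.5% in E0. The share of Bcl2l1 was 1.42% and 1.36% in E1, 3.60% and 3.22% in CN, 13.4% and 11.7% in E2, and 2.37% and 2.10% in E0. This sum leaves out the A1 genes, which also encode a survival protein but are not members here. Bcl2a1b stood at 112 CPM per kb in E1, 134 in CN, 290 in E2 and 50.1 in E0. In the same order Bcl2a1a stood at 85.6, 126, 148 and 47.1, and Bcl2a1d at 31.3, 40.2, 152 and 22.9. Among the members, those that varied most over the groups were not the most abundant. The range of group means on the log2 CPM scale was 3.60 for Bcl2, 3.07 for Bcl2l1 and 1.99 for Bbc3, against 0.30 for Mcl1 and 0.31 for Bid.

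**Figure D1:**
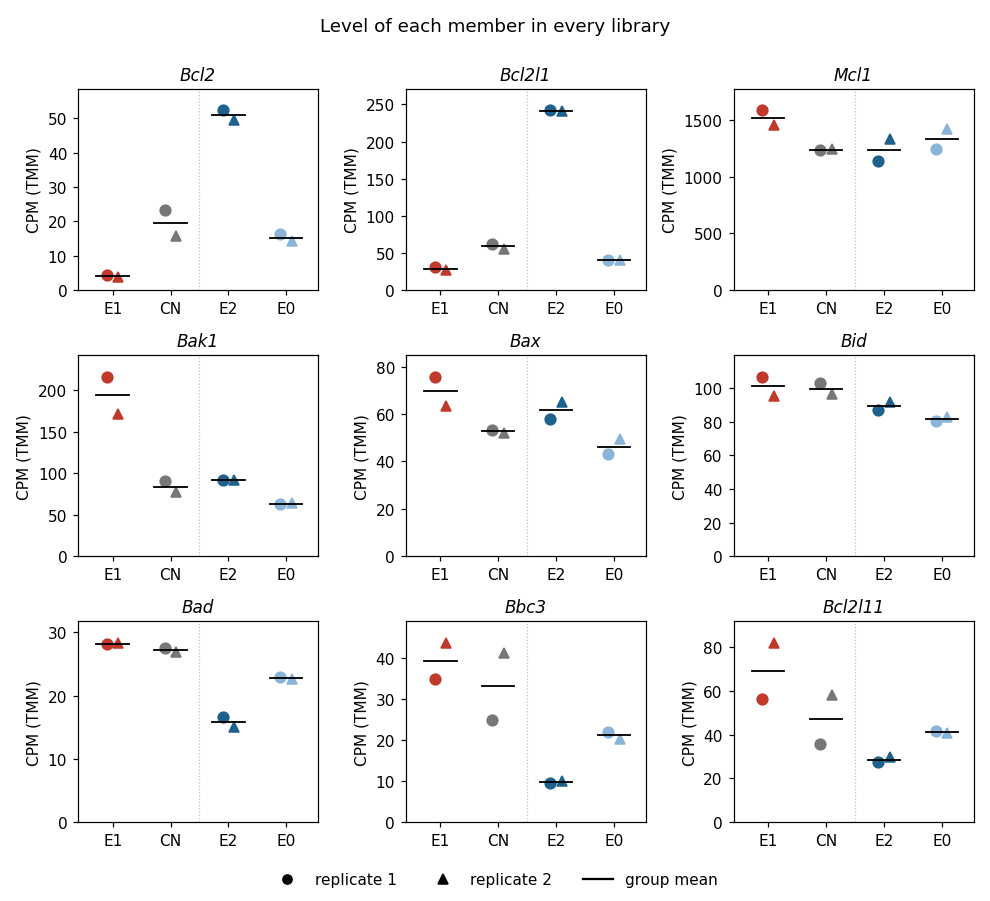
Level of each of the 9 members in CPM (vertical axes, from 0) in every library, with E1 beside CN and E2 beside E0; circles are replicate 1, triangles replicate 2 and black lines group means. Bcl2l1 stands at 242 and 241 CPM in E2 and below 63 CPM in the other 6 libraries, while Mcl1 and Bid stay within a narrow band.

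The effect of IFN-γ and TNF-α on the family was addressed by E1 against CN. The pro-survival genes Bcl2 and Bcl2l1 fell, and the pore formers Bak1 and Bax rose. Mcl1 and the 4 BH3-only genes did not pass the test. Of the 9 members, 2 rose, 2 fell and 5 were not called at an adjusted p below 0.05 (edgeR quasi-likelihood test, Benjamini-Hochberg adjustment over 15913 genes). Over all genes tested, 17.3% were called, 9.19% higher and 8.08% lower. The median log2 fold change of the 9 members was 0.25, against -0.01 over all genes.

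Bcl2 (ENSMUSG00000057329, mm10 chromosome 1, 106538178 to 106714274, minus strand) encodes the founding survival protein of the family. It had 4.53 and 3.86 CPM in E1, against 23.3 and 15.6 CPM in CN. Both E1 libraries lay far below both CN libraries, and the CN libraries themselves differed by more than the E1 libraries did. The log2 fold change was -2.21 ± 0.19 (SE, adjusted p = 0.000105), a 4.64-fold lower level. Bcl2l1 (ENSMUSG00000007659, chromosome 2, 152780668 to 152831728, minus strand) encodes BCL-XL, and its short splice form, BCL-XS, promotes death; gene counts do not separate the forms. It had 30.7 and 26.8 CPM in E1, against 62.2 and 55.7 CPM in CN. The groups did not overlap, and the log2 fold change was -1.04 ± 0.08 (adjusted p = 6.87e-05). Mcl1 (ENSMUSG00000038612, chromosome 3, 95658788 to 95663176, plus strand) encodes a survival protein with a very short life in the cell. It had 1583 and 1451 CPM in E1, against 1234 and 1242 CPM in CN. Both E1 libraries lay above both CN libraries, but the change of 0.29 ± 0.11 was not called (adjusted p = 0.112); DESeq2 called it (0.0311).

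Bak1 (ENSMUSG00000057789, chromosome 17, 27019810 to 27029009, minus strand) encodes the pore former that resides on mitochondria. It had 217 and 172 CPM in E1, against 91.0 and 76.8 CPM in CN. The E1 libraries were both higher than either CN library, and the log2 fold change was 1.21 ± 0.12 (adjusted p = 0.000185). Bax (ENSMUSG00000003873, chromosome 7, 45461697 to 45466898, minus strand), whose protein moves from the cytosol to mitochondria, had 75.9 and 63.3 CPM in E1, against 53.5 and 52.0 CPM in CN. The groups did not overlap, and the rise was small, with a log2 fold change of 0.40 ± 0.11 (adjusted p = 0.0421). This call was lost in 7 of 15 alternative analyses, among them those without CN replicate 1 (adjusted p = 0.108), CN replicate 2 (0.144) or E1 replicate 1 (0.211). Over all 15 the adjusted p ranged from 0.000868 to 0.211. Of the 10 monocyte and macrophage markers in the table, 4 were also higher in E1 and 2 were lower. Their part in these rises was not tested.

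The BH3-only genes did not pass the test in E1 against CN, and the replicates of Bcl2l11 and Bbc3 were spread widely. Bcl2l11 (ENSMUSG00000027381, chromosome 2, 128126038 to 128162547, plus strand) encodes BIM, a main killer of cytokine-deprived blood cells. It had 56.2 and 81.9 CPM in E1, against 35.5 and 58.2 CPM in CN. In both groups replicate 2 was the higher, so the groups overlapped. The log2 fold change was 0.56 ± 0.23 (adjusted p = 0.156), with a 95% interval of 0.02 to 1.10. It was 0.96 without CN replicate 2 and 0.26 without CN replicate 1. DESeq2 called it (adjusted p = 0.039), and so did edgeR with replicate number as a block within each experiment (9.01e-05). The labels do not state such a pairing. It was not called by limma-voom (0.125) or by edgeR with only the E1 and CN libraries (0.261). Bbc3 (ENSMUSG00000002083, chromosome 7, 16308393 to 16318205, plus strand) encodes PUMA, a p53-induced killer. It had 34.8 and 43.7 CPM in E1, against 25.0 and 41.2 CPM in CN. Its groups overlapped too, with a change of 0.25 ± 0.21 (adjusted p = 0.501). The change was 0.65 without CN replicate 2 and -0.056 without CN replicate 1. Bbc3 was called with the block (adjusted p = 0.0426) and not by DESeq2 (0.461). Bid (ENSMUSG00000004446, chromosome 6, 120891930 to 120916853, minus strand), which links death receptors to mitochondria once caspase-8 cleaves it, had 107 and 95.5 CPM in E1, against 103 and 96.3 CPM in CN. Bad (ENSMUSG00000024959, chromosome 19, 6941861 to 6951899, plus strand), whose protein is held inactive by phosphorylation, had 28.1 and 28.4 CPM in E1, against 27.4 and 27.0 CPM in CN. The 95% intervals of their log2 fold changes were -0.15 to 0.19 for Bid and -0.14 to 0.25 for Bad. Of the 9 members, 6 did not overlap between E1 and CN libraries, 4 of them above and 2 below, where 54.1% of all genes did not overlap.

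What GM-CSF, IL-4 and IL-33 added to IL-5 was addressed by E2 against E0. Bcl2l1 and Bcl2 rose strongly, Bbc3 and Bad fell, and Bak1 and Bax rose slightly. Mcl1, Bid and Bcl2l11 were not called. Of the 9 members, 4 rose, 2 fell and 3 were not called (edgeR quasi-likelihood test, Benjamini-Hochberg adjustment). Over all genes tested, 35.5% were called in this comparison, 17% higher and 18.5% lower. The median log2 fold change of the members was 0.13, against -0.02 over all genes.

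Bcl2l1 had 242 and 241 CPM in E2, against 40.7 and 41.0 CPM in E0. The replicates of each group nearly coincided, and the 5.91-fold rise (log2 fold change 2.56 ± 0.09, adjusted p = 1.01e-06) was the largest among the members in either comparison within an experiment. Bcl2 had 52.3 and 49.5 CPM in E2, against 16.3 and 14.2 CPM in E0. Its log2 fold change was 1.74 ± 0.18 (adjusted p = 0.000275). Mcl1 had 1141 and 1331 CPM in E2, against 1243 and 1421 CPM in E0. These groups overlapped, and the change was -0.11 with a 95% interval of -0.36 to 0.14.

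Bak1 had 91.4 and 91.5 CPM in E2, against 62.8 and 63.9 CPM in E0. The rise of 0.53 ± 0.12 (adjusted p = 0.00873) was larger than the spread in either group. Bax had 58.1 and 65.0 CPM in E2, against 43.0 and 49.6 CPM in E0. The groups did not overlap (0.41 ± 0.11, adjusted p = 0.0223), but the call was lost without E0 replicate 1 (adjusted p = 0.136) and without E2 replicate 2 (0.143), within a range of 0.000448 to 0.143 over the alternatives.

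Among the BH3-only genes, Bbc3 had 9.57 and 10.0 CPM in E2, against 22.1 and 20.2 CPM in E0. The E2 libraries were less than 0.5 times either E0 library, with a log2 fold change of -1.11 ± 0.22 (adjusted p = 0.00564). Bad had 16.6 and 15.0 CPM in E2, against 23.0 and 22.6 CPM in E0 (-0.53 ± 0.08, adjusted p = 0.00211). Both groups were tight, and they did not overlap. Bcl2l11 had 27.3 and 29.8 CPM in E2, against 41.8 and 41.0 CPM in E0. Both E2 libraries were lower, but with the spread estimated over all 8 libraries the change of -0.53 ± 0.24 was not called (adjusted p = 0.114). With only the E2 and E0 libraries in the fit it was called (-0.53, adjusted p = 0.00334). DESeq2 called it too (0.0381), as did edgeR with the replicate block (0.000115), a pairing that the labels do not state. It was not called by limma-voom (0.126). The change was -0.535 without CN replicate 1 and -0.534 without CN replicate 2. Bid had 87.2 and 91.6 CPM in E2, against 80.3 and 82.8 CPM in E0, with a 95% interval of the log2 fold change of -0.04 to 0.30. Of the 9 members, 8 did not overlap between E2 and E0 libraries, 5 above and 3 below, where 73.1% of all genes did not overlap.

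**Figure D2:**
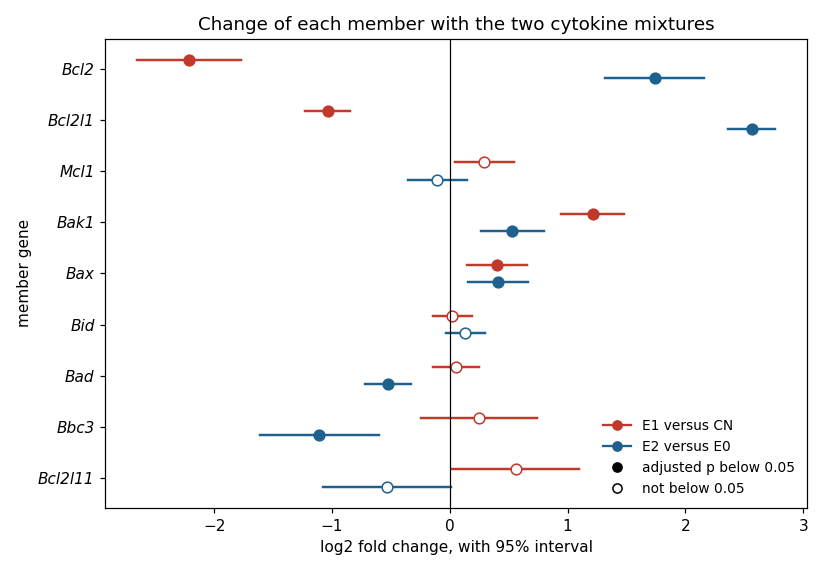
Log2 fold change of each member (horizontal axis, with 95% intervals as bars) in E1 versus CN (red) and E2 versus E0 (blue); filled circles have an adjusted p below 0.05. Bcl2 and Bcl2l1 lie on opposite sides of 0 in the 2 comparisons, at -2.21 and -1.04 in E1 versus CN and at 1.74 and 2.56 in E2 versus E0, and Bak1 and Bax lie above 0 in both.

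The region just upstream of a gene's start is where many transcription factors bind, and it was read for the members to show what lies there. RefSeq (GRCm38.p6, the assembly of mm10) gave 15 windows of 250 bases before an annotated start for all 9 members. The FOXO motif GTAAACA, searched on both strands, was found in 2 of the 15 windows, and in 3.17% of all 32851 windows of this kind. The matches belonged to the BH3-only genes Bcl2l11 and Bbc3. FOXO factors are known to switch on both genes when growth factor signalling stops. A motif of NF-κB, a factor that TNF-α activates, was found in 2 of the 15 windows and in 7.25% of all windows, with 1 match for Bcl2l1 and 2 overlapping matches for Bbc3. The STAT motif TTCNNNGAA, a wider STAT6 motif (TTC and GAA set 4 bases apart) and an interferon-response motif (GAAA and GAAA set 2 bases apart), all searched on both strands, were found in 0 of the 15 windows, and in 7.02%, 5.85% and 2.98% of all windows. A match is a description of letters, and these windows do not reach distant sites. The windows of 3 genes are shown because they hold a motif of a factor that the cytokines act on, with the match in capitals: the FOXO motif in Bcl2l11 (chr2:128125788-128126037, plus strand) and, as its reverse complement, in Bbc3 (chr7:16310011-16310260, plus strand), and the NF-κB motif in Bcl2l1 (chr2:152830718-152830967, minus strand).
Bcl2l11: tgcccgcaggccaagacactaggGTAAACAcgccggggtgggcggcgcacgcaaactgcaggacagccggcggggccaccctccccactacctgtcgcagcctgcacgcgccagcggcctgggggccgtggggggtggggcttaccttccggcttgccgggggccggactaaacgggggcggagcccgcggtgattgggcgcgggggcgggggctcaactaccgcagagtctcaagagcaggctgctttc
Bbc3: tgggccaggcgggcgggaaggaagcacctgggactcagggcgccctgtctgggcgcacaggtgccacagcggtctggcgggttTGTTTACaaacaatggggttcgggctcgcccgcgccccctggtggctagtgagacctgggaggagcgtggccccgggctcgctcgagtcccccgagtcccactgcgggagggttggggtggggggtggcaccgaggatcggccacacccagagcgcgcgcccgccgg
Bcl2l1: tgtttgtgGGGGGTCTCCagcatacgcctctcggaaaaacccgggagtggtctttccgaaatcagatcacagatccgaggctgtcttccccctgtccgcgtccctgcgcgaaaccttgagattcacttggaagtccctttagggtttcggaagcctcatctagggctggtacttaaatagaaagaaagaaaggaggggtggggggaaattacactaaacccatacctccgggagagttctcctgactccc

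Whether the changes of the members differed between the 2 comparisons was tested as the E2 change over E0 minus the E1 change over CN. The E2 change is what GM-CSF, IL-4 and IL-33 added to IL-5, and the E1 change is against no cytokine. The comparisons also come from different experiments, so mixture, control and experiment cannot be told apart in this difference. The pro-survival genes Bcl2 and Bcl2l1 had the higher response in E2, and Bak1, Bad, Bbc3 and Bcl2l11 had the lower one. Of the 9 members, 2 differed upward, 4 differed downward and 3 were not called, where 25.2% of all genes were called, 11.3% upward and 14% downward (edgeR quasi-likelihood test on the difference, Benjamini-Hochberg adjustment). The difference on the log2 scale was 3.95 ± 0.26 for Bcl2 (adjusted p = 2.93e-05) and 3.60 ± 0.12 for Bcl2l1 (adjusted p = 1.06e-06). It was -1.35 ± 0.31 for Bbc3 (adjusted p = 0.0134), -1.09 ± 0.33 for Bcl2l11 (0.0448), -0.68 ± 0.16 for Bak1 (0.0172) and -0.58 ± 0.12 for Bad (0.00881). The call for Bcl2l11 was lost in 7 of 14 alternatives, among them without CN replicate 1 (-0.80, adjusted p = 0.0799) or E1 replicate 2 (-0.80, 0.115). The call for Bak1 was lost without E0 replicate 2 (adjusted p = 0.0513), E2 replicate 1 (0.0614) or E2 replicate 2 (0.0613), and that for Bbc3 without E2 replicate 1 (0.0563), so that 3 members remained without that library. Bax rose by nearly the same amount in both comparisons, and its difference was 0.01 with a 95% interval of -0.35 to 0.37. The 95% interval of the difference was -0.13 to 0.35 for Bid and -0.76 to -0.05 for Mcl1, which was not called (adjusted p = 0.0952).

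The order of the 4 groups differed between members, and Mcl1 did not share the order of the other pro-survival genes. E1 had the highest mean for 7 of the 9 members, all except Bcl2 and Bcl2l1, for which it had the lowest. E2 had the highest mean for these 2 and the lowest for 4 members, Mcl1, Bad, Bbc3 and Bcl2l11. Some of these ranks rest on nearly equal means. E1 and CN had 101.2 and 99.71 CPM for Bid and 28.22 and 27.2 CPM for Bad, and CN and E2 had 1238 and 1236 CPM for Mcl1. The share of all genes with E1 highest or E2 lowest was not computed, so these counts do not set the members apart. Of the 27 pairs of neighbours in the orders of the members, 9 differed (adjusted p below 0.05) and 18 did not. Of all genes, 53.9% were called in E2 versus E1, 52.7% in E2 versus CN and 37.8% in E1 versus E0. The shares were 35.5% in E2 versus E0, 25.4% in E0 versus CN and 17.3% in E1 versus CN, which also supplied neighbour pairs. Neighbours are the groups nearest in mean, so shares over fixed comparisons are not a like measure. For Bcl2l1 every neighbour differed, in the order E2, CN, E0 and E1, and each of these pairs crosses the experiments. In such pairs cytokine and experiment cannot be told apart, and only E1 with CN and E2 with E0 share an experiment. For Bcl2 the order was the same, but E0 and CN were not told apart (adjusted p = 0.186). For Bak1, E1 stood above E2 (adjusted p = 0.000117), E2 and CN were not told apart (0.391), and CN stood above E0 (0.0353). For Bad and Bbc3, E0 stood above E2 (0.00211 and 0.00564), and no other neighbours differed. For Mcl1, Bax, Bid and Bcl2l11, no neighbours in the order differed at this spread, but the highest and lowest groups did. These pairs were picked by their means in the same data and cross the experiments. The adjusted p-values, from the same edgeR test, do not account for that choice. The log2 fold change of E2 versus E1 was -1.27 for Bcl2l11 (adjusted p = 0.00237) and -0.30 for Mcl1 (0.0487), and that of E1 versus E0 was 0.59 for Bax (0.00421) and 0.31 for Bid (0.0113).

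IL-5 alone was set against no cytokine by E0 versus CN. These groups come from different experiments, so that IL-5 and the experiment cannot be told apart, and E0 and CN also serve as the controls above. Of the 9 members, 3 were lower in E0 and 0 were higher, where 25.4% of all genes were called, 13.5% higher and 11.9% lower. The libraries of E0 and CN did not overlap for 7 of the 9 members, against 65.7% of all genes. Bcl2l1 was lower in E0 by a log2 fold change of -0.53 ± 0.08 (adjusted p = 0.00281), Bak1 by -0.41 ± 0.12 (0.0353) and Bid by -0.29 ± 0.07 (0.0231). Bbc3 had a log2 fold change of -0.65 ± 0.22 (adjusted p = 0.0604) and Bcl2l11 one of -0.18 ± 0.23 (0.611). Without E0 replicate 1, without E0 replicate 2, and with library totals as the scaling, 1 member was called, and in each of these analyses Bak1 (adjusted p = 0.129, 0.12 and 0.0585) and Bid (0.113, 0.0866 and 0.0608) were lost. Without CN replicate 1, Bak1 (0.144) and Bid (0.0831) were lost as well.

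Ratios within a library set survival and death genes against each other without any scaling between libraries. The ratio of Bcl2l1 to Bcl2l11, per kb of exon, was 0.956 and 0.572 in E1, against 3.07 and 1.67 in CN, and 15.5 and 14.2 in E2, against 1.71 and 1.75 in E0. In the E1 libraries the ratio was thus below 1, though close to it in replicate 1, and in the E2 libraries it was higher than in any other library. The length used covers all annotated exons, so a ratio of 1 need not mean equal numbers of transcripts. Mcl1, at 98.5% of the summed level of Bcl2, Bcl2l1 and Mcl1 in both E1 libraries, is not part of these ratios. Nor are the A1 survival genes, which that sum leaves out. The ratio of Bcl2l1 to Bbc3 was 0.408 and 0.284 in E1, against 1.15 and 0.625 in CN, and 11.7 and 11.1 in E2, against 0.854 and 0.939 in E0. Between the pore formers, Bak1 stood at 1.87 and 1.78 times Bax in E1, against 1.11 and 0.967 in CN, and at 1.03 and 0.922 in E2, against 0.955 and 0.843 in E0. For all 3 ratios the E1 libraries did not overlap the CN libraries. For the ratio of Bak1 to Bax, E2 and E0 overlapped. These ratios are descriptions of transcripts, and no test was made on them.

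**Figure D3:**
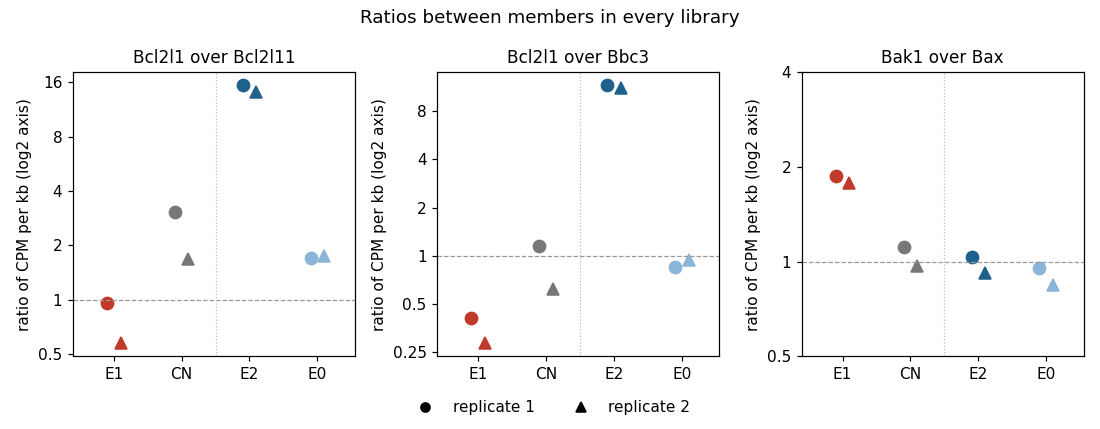
Ratios between pairs of members, as CPM per kb of exon on log2 axes, in every library, with E1 beside CN and E2 beside E0; the dashed line marks a ratio of 1. Bcl2l1 over Bcl2l11 is 15.5 and 14.2 in E2 and at most 3.07 elsewhere, while Bak1 over Bax is highest in E1, at 1.87 and 1.78.

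The replicates were also read alone. Comparing replicate 1 with replicate 1 and replicate 2 with replicate 2, Bcl2 changed by -2.37 and -2.02 (log2) in E1 versus CN and by 1.68 and 1.80 in E2 versus E0. Bcl2l1 changed by -1.02 and -1.06 in E1 versus CN, and by 2.57 and 2.56 in E2 versus E0. Bak1 changed by 1.25 and 1.16 in E1 versus CN, and by 0.54 and 0.52 in E2 versus E0. The 2 values had the same sign for 8 of 9 members in E1 versus CN, with Bid the exception (0.05 and -0.01), and for 9 of 9 in E2 versus E0. Bbc3 changed by 0.48 and 0.08 in E1 versus CN. In E0 versus CN the sign was the same for 8 of 9, with Bcl2l11 the exception (0.23 and -0.51), and Bbc3 changed by -0.18 and -1.03. The share of all genes with the same sign was not computed, so these counts do not set the members apart. Genes whose groups do not overlap always have the same sign. They were 54.1% of all genes in E1 versus CN, 73.1% in E2 versus E0 and 65.7% in E0 versus CN.

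Of 16 other genes of the BCL-2 family, 11 were in the table, and Bcl2l10, Bok, Hrk, Bik and Bcl2l15 were not analysed here. In E1 versus CN, where 17.3% of all genes were called, 3 of the 11 rose, 2 fell and 6 were not called, with a median log2 fold change of -0.09 against -0.01 over all genes. Bcl2l14, a little-studied relative, had 8.13 and 6.46 CPM in E1, against 0.0949 and 0.120 CPM in CN. The CN level rested on 9 and 10 reads, and the rise was 67.3-fold (log2 fold change 6.07 ± 0.67, adjusted p = 0.000422). Pmaip1, which encodes the BH3-only protein NOXA, an inhibitor of MCL-1, had 75.9 and 60.7 CPM in E1, against 35.2 and 34.6 CPM in CN (0.97 ± 0.13, adjusted p = 0.00111). Bmf, a BH3-only gene tied to the cytoskeleton, had 5.48 and 6.32 CPM in E1, against 11.1 and 12.0 CPM in CN (-0.97 ± 0.15, adjusted p = 0.00274). Within the BH3-only class, NOXA transcripts thus rose and BMF transcripts fell under the same mixture. The pro-survival gene Bcl2a1a fell by 0.56 and the survival gene Bcl2l2, encoding BCL-W, rose by 0.48. Bcl2l2 had an adjusted p of 0.0499 and lost its call in 8 of 15 alternatives, including those without CN replicate 1 (0.173), CN replicate 2 (0.126) or E1 replicate 2 (0.196). Bcl2a1a lost its call without CN replicate 1 (0.0814) or E1 replicate 2 (0.0643), and without either of these libraries 3 genes of the list were called instead of 5.

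In E2 versus E0, where 35.5% of all genes were called, 6 of the 11 genes rose, 1 fell and 4 were not called, with a median of 0.46 against -0.02 over all genes. The A1 genes, which encode a short-lived survival protein and are induced by NF-κB in mouse leukocytes, rose together. Bcl2a1d had 121 and 142 CPM in E2, against 16.7 and 22.8 CPM in E0 (2.73 ± 0.16, adjusted p = 1.57e-05). Bcl2a1b had 213 and 260 CPM in E2, against 35.0 and 46.8 CPM in E0 (2.53 ± 0.15, adjusted p = 1.67e-05), and Bcl2a1a rose by 1.65 ± 0.12. These copies are nearly identical in sequence, so reads may be split among them and their separate values are uncertain. Bcl2l2 rose by 0.92 ± 0.14 (adjusted p = 0.00167) and Pmaip1 by 0.75 ± 0.13 (adjusted p = 0.00277), so NOXA transcripts rose in both comparisons; the E2 value was added after it was seen. The difference between the responses of Pmaip1 was not called (-0.22 ± 0.18, adjusted p = 0.417). Bnip3l, a mitophagy receptor related to the BH3-only proteins, fell by 0.45, and this call was lost without any of the E2 and E0 libraries (adjusted p = 0.0503 to 0.0831).

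Downstream of the mitochondrial pore lie cytochrome c, the apoptosome and the caspases, with the inhibitor of apoptosis proteins that restrain them. All 18 listed genes were in the table. In E1 versus CN, 5 rose, 0 fell and 13 were not called, with a median of 0.02, where 17.3% of all genes were called. With library totals as the scaling, 5 rose and 5 fell. Birc3, encoding the inhibitor cIAP2, had 432 and 480 CPM in E1, against 214 and 229 CPM in CN (1.04 ± 0.08, adjusted p = 4.91e-05). Its neighbour Birc2, encoding cIAP1, rose by 0.62 and Cycs, encoding cytochrome c, by 0.83.

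In E2 versus E0, 4 of the 18 genes rose, 2 fell and 12 were not called, with a median of 0.13, a called share near the 35.5% of all genes. Xiap, whose protein inhibits caspases directly, had 172 and 176 CPM in E2, against 136 and 140 CPM in E0 (0.33 ± 0.06, adjusted p = 0.00405). Aifm1, a mitochondrial flavoprotein gene with a role in caspase-independent death, rose by 1.08, Cycs by 0.93 and Birc3 by 0.65. Dffb, encoding the nuclease that cuts DNA in apoptosis, fell by 0.37, and this call was lost without any of the E2 and E0 libraries (adjusted p = 0.0688 to 0.144).

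The last list held 20 regulators and partners of BCL-2 proteins, all in the table. In E1 versus CN, 4 rose, 0 fell and 16 were not called, with a median of 0.03, a called share near the 17.3% of all genes. The 4 were Vdac2, a mitochondrial channel gene whose protein binds BAK (0.57 ± 0.07, adjusted p = 0.000915), Stat5a (0.49), Trp53, encoding p53 (0.43), and Ywhae, a 14-3-3 gene (0.34). The call for Ywhae was lost without CN replicate 1 (adjusted p = 0.056), CN replicate 2 (0.158) or E1 replicate 1 (0.158). In E2 versus E0, 9 rose, 3 fell and 8 were not called, with a median of 0.21, where 35.5% of all genes were called. Pim2, a survival kinase gene whose protein phosphorylates BAD, had 732 and 773 CPM in E2, against 49.5 and 52.6 CPM in E0 (3.88 ± 0.11, adjusted p = 5.91e-07). Its relative Pim1 had 1057 and 1063 CPM in E2, against 445 and 431 CPM in E0 (1.27 ± 0.08). Stat5b fell by 0.60, Foxo1 by 0.58 and Foxo3 by 0.26. Foxo1 had 14.9 and 14.6 CPM in E2, against 22.8 and 21.4 CPM in E0. FOXO proteins are known to be controlled mostly by phosphorylation, which these data do not measure. The call for Foxo3 was lost without E0 replicate 1 (adjusted p = 0.106), E2 replicate 1 (0.0857) or E2 replicate 2 (0.0742), and the list had 6 called genes without E0 replicate 1 and 7 without E2 replicate 2.

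**Figure D4:**
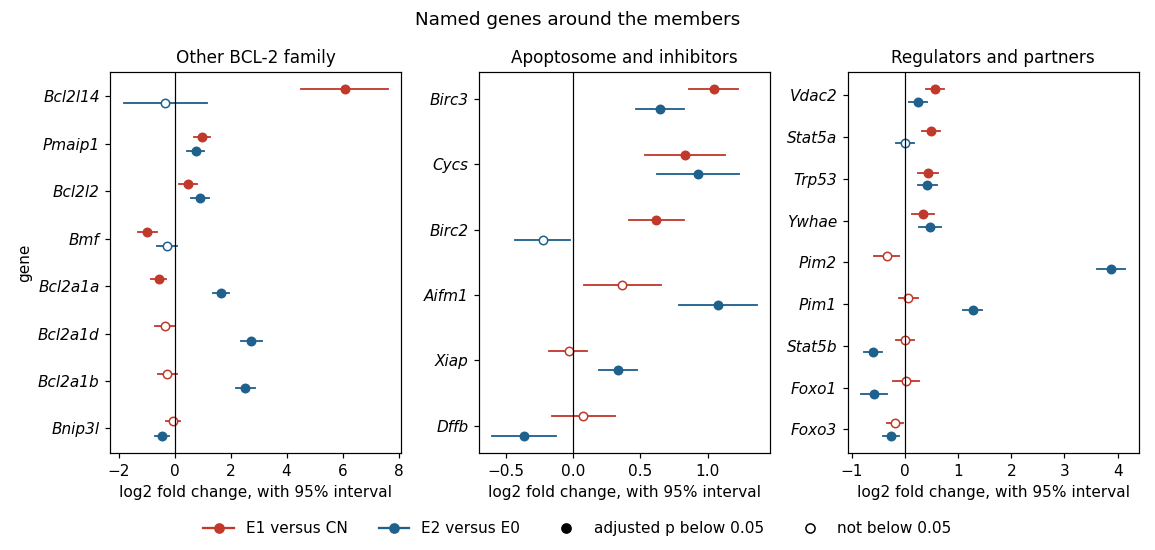
Log2 fold changes with 95% intervals of named genes of 3 lists around the members, in E1 versus CN (red) and E2 versus E0 (blue); filled circles have an adjusted p below 0.05. The A1 genes (Bcl2a1a, Bcl2a1b, Bcl2a1d), Pim2 and Pim1 lie to the right of 0 in E2 versus E0, and Bcl2l14 and Birc3 lie to the right in E1 versus CN.

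The genes whose pattern was most like that of the 3 most variable members were found by the root mean square distance of log2 CPM over the 8 libraries, each gene centred on its own mean, among 9171 genes that reached 10 CPM in a group. Among those nearest to Bcl2l1 were Tarm1 (distance 0.125), a receptor gene of myeloid cells, and Mapt (0.179), the gene of tau. Those nearest to Bbc3 were Tgfbr3l (0.105), Cpt1a (0.137), the gate enzyme of mitochondrial fat oxidation, and 2410006H16Rik (0.145). For Bcl2 the nearest were Eps8 (0.346), Rufy4 (0.355) and Gm26527 (0.357), all farther away than those of the other members. The 8 libraries come from 4 groups, so a short distance describes a shared order of group levels.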

How the data were processed

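Stranded mRNA libraries were counted by the authors with STAR and featureCounts on mm10, per the submitters' processing notes; their versions, the annotation, the strand setting and any filter on low counts were not given in the sources used here. Raw read counts per Ensembl gene make up the deposited table. Of its rows, 15917 were genes, and 1 unnamed row that equalled the column totals was left out. Of the IDs, 15730 matched a symbol. Positions and exon lengths are from GENCODE M21 (mm10), which may differ from the authors' annotation. Exons of Bid, Bad, Bak1 and Bcl2 overlap genes on the opposite strand over 17.7%, 20.5%, 18.2% and 6.09% of their length, and those of Bax a gene on the same strand over 12.2%. Without a stated strand setting their counts may include such reads.

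In R 4.3.3 with edgeR 4.0.16, filterByExpr (15913 genes kept), TMM scaling and a quasi-likelihood fit of the 4 group means to all 8 libraries were used, leaving 4 residual degrees of freedom, with p-values adjusted over all genes and calls made below 0.05. Intervals are 95%. Standard errors were taken from the F statistic. A set of 15 alternatives covered scaling, filter, test (DESeq2 1.42.0, limma 3.58.1), the replicate block, the libraries in the fit and each library left out; a left-out library leaves 1 in its group, which is assumed to vary like the rest. The scripts were also tested on simulated counts. All 9 members are named. From each list up to 4 called genes per direction at 5 CPM or more were taken, in each comparison within an experiment. The members and lists were chosen with earlier results of these data known. Some genes that this rule takes are not reported here.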

Additional observations from a re-analysis of the deposited data

Results flagged for a closer look

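Of the members, 6 had changes that differed between the 2 comparisons, by the test of the difference described above, where 25.2% of all genes did. The E2 change over E0 minus the E1 change over CN, on the log2 scale, was 3.95 for Bcl2, 3.60 for Bcl2l1, -0.68 for Bak1, -0.58 for Bad, -1.35 for Bbc3 and -1.09 for Bcl2l11. The call was lost in 7 of 14 alternatives for Bcl2l11, in 3 for Bak1 and in 1 for Bbc3, and 3 members were called without E2 replicate 1. The 2 comparisons come from different experiments with different control cultures, so mixture and experiment cannot be told apart in this difference.

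The changes of 2 members differed in sign between replicate 1 and replicate 2, which also differ by sex, and this was not tested. For Bid in E1 versus CN the change was 0.05 in replicate 1 and -0.01 in replicate 2, a difference of 0.066. Bid thus hardly changed in either replicate. For Bcl2l11 in E0 versus CN it was 0.23 in replicate 1 and -0.51 in replicate 2, a difference of 0.74.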

How the results depend on the processing

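Over the alternatives, 467 of 531 fold changes of members kept their direction and side of the threshold, 30 lost a call, 24 gained one and 10 changed sign, none of the last being called. Bcl2, Bcl2l1 and Bak1 in E1 versus CN, and these 3 with Bad and Bbc3 in E2 versus E0, were called under all 15. With libraries left out in turn, members called ranged from 3 to 5 in E1 versus CN (reported 4), 5 to 7 in E2 versus E0 (6), 3 to 6 for the difference of responses (6) and 1 to 4 in E0 versus CN (3), and neighbour pairs that differ from 8 to 13 (9). In E0 versus CN, 1 member was called with library totals and 5 by DESeq2.

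Sign changes were Bid in E1 versus CN with library totals (-0.071) and, with libraries left out (-0.062 to 0.101), without CN replicate 2 (-0.026) or E1 replicate 1; Bad there with library totals (-0.039); Bbc3 there without CN replicate 1 (-0.056, within -0.056 to 0.654); Bax in the difference of responses without CN replicate 1 (-0.026), E1 replicate 2 (-0.115), E0 replicate 1 (-0.089) or E2 replicate 2 (-0.073), within -0.115 to 0.146; and Bcl2l11 in E0 versus CN without CN replicate 2 (0.219, within -0.498 to 0.219). Library totals moved the median of all genes in E1 versus CN to -0.11, where 1190 genes were higher and 1891 lower (reported 1463 and 1286), and in E0 versus CN gave 2561 and 1270 (reported 2141 and 1897). The cause was not tested.

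Deviations of same-numbered libraries from their group means correlated across genes at 0.50 between E1 and CN and at 0.59 between E2 and E0 (0.35 and 0.39 over autosomal genes, without the sex-linked ones), but the labels do not say that a number marks a shared source. With the replicate block within each experiment, 7 members were called in E1 versus CN (Mcl1, Bbc3 and Bcl2l11 higher in addition), 8 in E2 versus E0, 7 in the difference of responses and 7 in E0 versus CN, and 22 neighbour pairs differed. In E1 versus CN it called 9 of the other family genes, 11 of the caspase pathway and 7 of the regulators. All genes called were then 5521 instead of 2749 in E1 versus CN, 8514 instead of 5655 in E2 versus E0, 6821 instead of 4018 in the difference and 7476 instead of 4038 in E0 versus CN. Without E0 replicate 1, E2 replicate 1 or E2 replicate 2, E2 versus E0 had 3561, 3567 and 3334, and without CN replicate 2, E0 replicate 1 or E0 replicate 2, E0 versus CN had 2321, 2427 and 2235. With 2 libraries per group, small changes may be missed.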

Other observations

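The replicates of Bbc3 and Bcl2l11 stood apart in experiment 1. These genes were picked after their values were seen, and no test was made. In E1, replicate 2 stood at 1.26 times replicate 1 for Bbc3 and at 1.46 times for Bcl2l11. In CN the ratios were 1.65 for Bbc3 and 1.64 for Bcl2l11. In E2 they were 1.05 and 1.09, and in E0 0.916 and 0.981. Ddit3, which encodes CHOP, a stress-induced transcription factor, had 49.9 and 60.6 CPM in E1, against 33.7 and 61.9 CPM in CN, and 21.9 and 26.2 CPM in E2, against 19.1 and 20.2 CPM in E0.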
